A study of Homo sapiens with 6 samples.

Results

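The genes described here are 10 genes of MHC class I antigen presentation: HLA-B, HLA-C, HLA-E, HLA-F, B2M, TAP1, TAP2, TAPBP, PSMB8 and PSMB9. They were taken by name, and every probe set whose platform annotation gives 1 of these symbols and no other was kept, which gave 26 of the 54613 probe sets on the array and 10 of the 19775 genes with a probe set of their own. The cells were A549, an established human lung adenocarcinoma line of epithelial origin. In 3 samples labelled NME2-depleted, NME2 (a nucleoside diphosphate kinase, also known as NM23-H2) had been silenced, per the series text transiently with a small interfering RNA (siRNA) duplex, and 3 samples labelled control had received control duplexes, which would expose all 6 to transfected double-stranded RNA. The methods describe transient siRNA silencing too, from another supplier, and, for nucleosome mapping, a stable line with hairpin RNAs, and the sample titles say only depleted and control. Total RNA was labelled with biotin and hybridised to Affymetrix HG-U133 Plus 2.0 arrays, 1 array per RNA, and the question is how silencing NME2 changes transcript levels. No untransfected sample was analysed here, and the time from transfection to harvest is not stated in the sources read.

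MHC class I molecules display short peptides made inside the cell to CD8+ T cells. The proteasome cuts proteins into peptides, and in the immunoproteasome, a form induced by interferon, the subunits PSMB8 and PSMB9 take the places of PSMB5 and PSMB6. TAP1 and TAP2 form the transporter that carries peptides into the endoplasmic reticulum, where tapasin (TAPBP) bridges the transporter to an empty heavy chain and edits the peptides it binds. The loaded complex of a heavy chain with beta-2-microglobulin (B2M) then moves to the cell surface. HLA-B and HLA-C are classical heavy chains, HLA-E presents mainly leader peptides of other class I chains to NKG2 receptors of natural killer cells, and HLA-F is a non-classical chain. Interferons raise most of these genes, through STAT and IRF factors and, for class I genes that include the heavy chains and B2M, through the co-activator NLRC5.

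Several of the genes carry, just before their start, the letters to which IRF factors and the interferon-induced complex of STAT proteins with IRF9 bind, the core of the interferon-stimulated response element. The promoters of the interferon genes listed further on were not looked at, and a tie of these letters to the array values was not tested. The upstream sequences below are shown as background. They are RefSeq sequences of GRCh38.p14, each the 160 bases that end at the last base before the annotated start, 5′ to 3′ on the strand of the gene, and capitals mark every match, on either strand, to GAAA and GAAA with any 2 bases between. HLA-B is shown as a heavy chain without a match to these exact letters. Looser forms of the element were not searched for, so it may still hold one.
B2M (chr15:44711357-44711516, plus strand): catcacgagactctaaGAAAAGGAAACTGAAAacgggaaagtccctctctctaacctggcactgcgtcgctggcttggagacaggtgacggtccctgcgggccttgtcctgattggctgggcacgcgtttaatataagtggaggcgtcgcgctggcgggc
TAP1 (chr6:32853705-32853864, minus strand): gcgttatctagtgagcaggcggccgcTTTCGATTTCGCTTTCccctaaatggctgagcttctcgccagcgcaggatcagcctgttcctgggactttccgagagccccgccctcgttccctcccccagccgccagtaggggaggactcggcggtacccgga
TAP2 (chr6:32838740-32838899, minus strand): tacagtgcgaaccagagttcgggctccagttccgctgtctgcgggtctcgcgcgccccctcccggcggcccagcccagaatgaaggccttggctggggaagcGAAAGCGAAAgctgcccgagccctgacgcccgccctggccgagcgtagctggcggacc
TAPBP (chr6:33314079-33314238, minus strand): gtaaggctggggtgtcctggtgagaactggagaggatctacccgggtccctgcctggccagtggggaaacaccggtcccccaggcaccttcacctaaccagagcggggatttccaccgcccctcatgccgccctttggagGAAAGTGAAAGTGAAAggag
HLA-F (chr6:29723274-29723433, plus strand): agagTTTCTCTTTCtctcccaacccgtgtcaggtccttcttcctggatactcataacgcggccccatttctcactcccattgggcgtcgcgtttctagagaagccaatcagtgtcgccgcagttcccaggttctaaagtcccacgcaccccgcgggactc
HLA-B (chr6:31357180-31357339, minus strand): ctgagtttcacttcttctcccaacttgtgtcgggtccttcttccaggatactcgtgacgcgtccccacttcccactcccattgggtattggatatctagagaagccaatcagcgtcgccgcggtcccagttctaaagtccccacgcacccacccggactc

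Promoter sequences were matched for 9 of the 10 genes, HLA-E having no entry, and 250 bases before each start were searched on both strands. The core was found in 5 of the 9 (HLA-F, B2M, TAP1, TAP2 and TAPBP), and 3.06% of all 24885 windows of this length held it. In B2M, TAP1 and TAPBP a pair of matches overlap, so that the capitals run over 16 bases. TAP2 and HLA-F had 1 match each, that of HLA-F on the reverse strand. The palindrome TTCNNNGAA, to which STAT dimers bind, was in 0 of the 9 windows and in 6.81% of all windows. The cyclic AMP element TGACGTCA was also in 0 of the 9 and in 1.79% of all. A loose form of the site for NF-kappa B, GGG and CC with any 5 bases between, was in 6 of the 9 against 53.1% of all. The letters ATTGG, the reverse of the CCAAT box, were in 6 of the 9 against 33.4%. These matches describe letters in the window, and a window without a match may hold a variant that the exact letters miss. PSMB9 has no match to the interferon core in its own window, but it starts 487 bases from TAP1 and is read in the opposite direction, and the TAP1 match at chr6:32853823-32853838 lies 354 to 369 bases before the PSMB9 start. Of the 10 genes 9 lie on chromosome 6, with TAP2, PSMB8, TAP1 and PSMB9 inside a stretch of 38021 bases, and B2M lies on chromosome 15.

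The values are signals on a linear scale, scaled by the authors so that each array had a trimmed mean of 500.06 to 500.07, and were taken to log2. A probe set was tested where its mean log2 signal reached the median of the array, a signal of 71.7, which 27307 probe sets did. The NME2 probe set, which also reads the NME1-NME2 read-through transcript, had signals of 1920, 3676 and 3216 in depleted and 17862, 19389 and 21045 in control arrays, 6.85-fold lower (log2 -2.78, SE 0.19, limma adjusted p = 0.00032). The A549 label was checked against markers: the keratins KRT8, KRT18 and KRT7 had group means between 15353 and 30769, 7 of 8 lung epithelial markers passed the filter, the lung factor NKX2-1 did not, and of leukocyte, fibroblast and endothelial markers 2 of 6, 3 of 6 and 1 of 5 did. The samples of a group are called biological replicates, but the labels do not say how the 3 were kept apart, so the p-values here speak only of the variation among these 6 samples, which may be technical. In bulk RNA a lower share of cells with a transcript and less of it per cell cannot be told apart.

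No member passed the test, and most had a slightly lower mean signal in NME2-depleted than in control arrays. Of the 26 probe sets 21 were tested and 5 were below the filter, each gene having at least 1 tested. At a limma adjusted p of 0.05, 0 of the 21 were called, against 108 of 27307 (0.396%) over the whole array, and 76 of those 108 were lower (0.278% of all tested). At an unadjusted p of 0.05, 4 of the 21 differed, all 4 lower: HLA-E 200904_at, HLA-F 221875_x_at, TAP2 225973_at and PSMB8 209040_s_at. Over the array 12.9% of probe sets passed that level in either direction and 6.42% in the lower direction. With each gene read from its brightest tested probe set, 0 of 10 genes were called against 0.540% of 12406, and 3 of 10 (HLA-F, TAP2 and PSMB8) were lower at the unadjusted level against 7.75%.

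The mean was lower in depleted arrays for 18 of the 21 probe sets, against 47.5% of all tested. The median log2 difference over the 21 was -0.12, against 0.01 over all tested probe sets, and the values ran from -0.45 to 0.11. The groups did not overlap with depleted lower for 4 probe sets (HLA-E 200904_at, HLA-F 221875_x_at and both tested TAP2 sets), where 8.91% of all tested were of this kind. They did not overlap with depleted higher for 1 (HLA-F 204806_x_at), where 9.66% were. The remaining 16 overlapped. Adjusted p-values ran from 0.112 to 0.957. The 21 are not separate measurements: 11 carry the suffix _x_at, which marks probes that may also match other similar transcripts such as those of sister HLA genes, 6 carry _s_at, for probes shared between transcripts, and 4 carry neither.

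**Figure D1:**
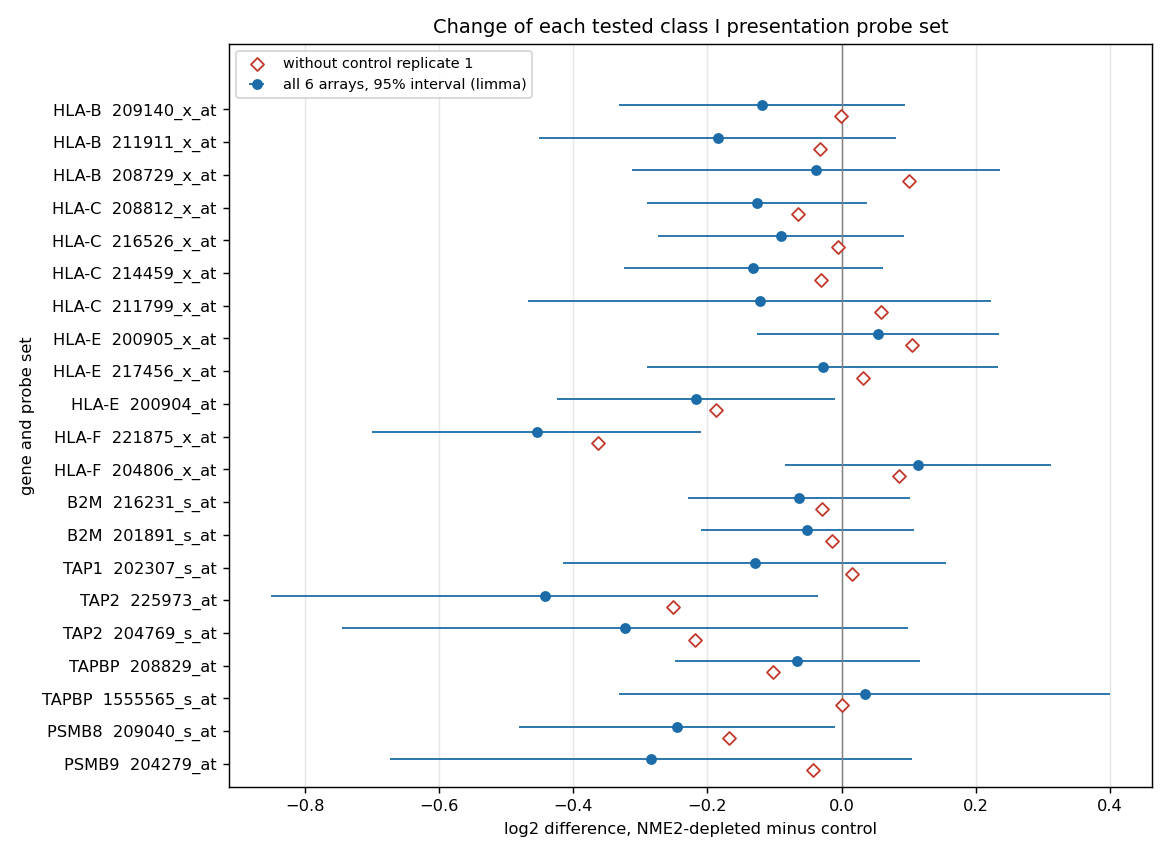
Log2 difference in signal, NME2-depleted minus control (x axis), for the 21 tested probe sets of the 10 genes (y axis). Filled points are the estimates from all 6 arrays with their limma 95% intervals and open diamonds the estimates without control replicate 1. The filled points lie between -0.45 and 0.11, 18 of 21 below 0, and without control replicate 1 14 of 21 lie below 0.

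A single array carried much of this. Control replicate 1 had the highest of the 6 signals for 16 of the 21 probe sets, against 15.8% of all tested, and it lay above all 3 depleted arrays for 17 of 21, against 26.2%. Control replicate 2 lay above all 3 depleted arrays for 5 of 21, against 27.5%, and control replicate 3 for 9 of 21, against 27.7%. Without control replicate 1 the median log2 difference of the 21 was -0.03 (0.0043 over all tested), 14 were lower and 7 higher. In that fit 1 of 21 had an unadjusted p under 0.05, against 12.0% of all tested, and 0 were called, against 0.231%. The lowest adjusted p among the 21 was then 0.238.

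**Figure D2:**
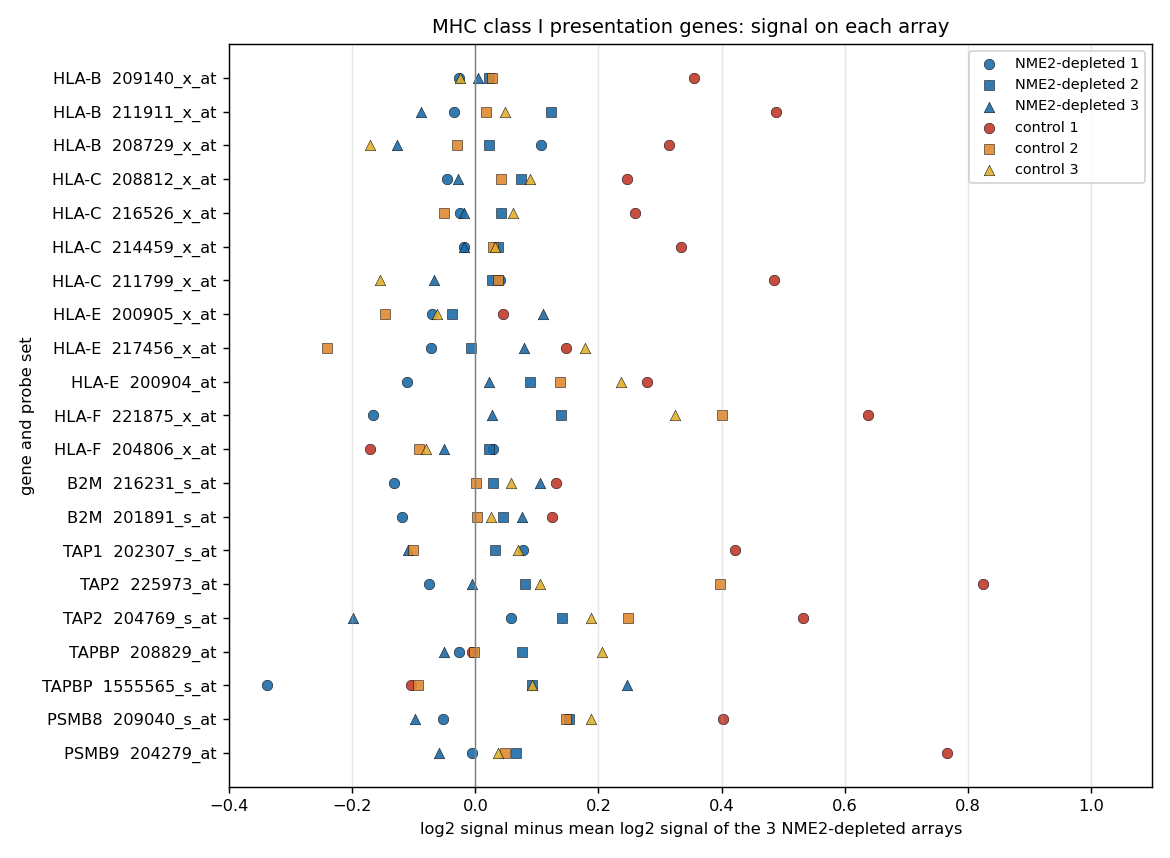
Log2 signal on each array minus the mean of the 3 NME2-depleted arrays (x axis) for the 21 tested probe sets (y axis), with colour for group and control replicate and symbol shape for replicate number. The circle of control replicate 1 is the rightmost point for 16 of the 21, and the other 2 controls mix with the depleted arrays for most HLA-B, HLA-C, B2M and TAPBP sets.

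The classical heavy chains HLA-B and HLA-C did not differ between the groups beyond the spread of the arrays. The brightest HLA-B set, 209140_x_at, had signals of 3075, 3179.6 and 3141.5 in depleted and 4005, 3189.6 and 3079 in control arrays. The depleted arrays and control replicates 2 and 3 lay close together, and control replicate 1 stood above all 5. The log2 difference was -0.12 (95% interval -0.33 to 0.09, limma adjusted p = 0.655), and it was -0.00093 without control replicate 1. The other HLA-B sets gave -0.18 (211911_x_at, adjusted p = 0.568) and -0.04 (208729_x_at, adjusted p = 0.932), and without control replicate 1 they gave -0.03 and 0.10. The brightest HLA-C set, 208812_x_at, had signals of 6097, 6629.7 and 6170.5 in depleted and 7471, 6480 and 6696 in control arrays. Control replicate 1 was again the highest, and control replicate 2 lay among the depleted arrays. The log2 difference was -0.13 (95% interval -0.29 to 0.04, adjusted p = 0.521), and -0.07 without control replicate 1. The other HLA-C sets lay between -0.13 and -0.09, with adjusted p-values of 0.578 to 0.794, and between -0.03 and 0.06 without control replicate 1. In all 7 sets of these chains control replicate 1 was the highest array.

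HLA-F, the non-classical chain, gave the lowest p among the members in 1 probe set and the opposite direction in another. The set 221875_x_at had signals of 929, 1148 and 1063 in depleted and 1622, 1377 and 1307 in control arrays. Every depleted array lay below every control array, with means of 1047 ± 110 and 1435 ± 166 (SD, n = 3 each). The difference was 1.37-fold lower (log2 -0.45, SE 0.11, 95% interval -0.70 to -0.21, limma unadjusted p = 0.00178, adjusted p = 0.112), and it did not pass the threshold. Without control replicate 1 it was -0.36 (adjusted p = 0.238), and leaving out each array in turn gave adjusted p-values of 0.143 to 0.279. The set 204806_x_at had signals of 954, 949 and 902 in depleted and 830.1, 878 and 885 in control arrays. Here every depleted array lay above every control array, by a smaller step. Depleted minus control came to 0.11 on the log2 scale (SE 0.09, 95% interval -0.08 to 0.31, adjusted p = 0.644). The change of the first set minus that of the second, compared after these values had been seen, was -0.57 (-0.45 without control replicate 1). Its exact two-sided permutation p was 0.1, the smallest that 3 against 3 arrays can give. The opposite orders of the groups in the 2 sets fixed that p in advance, so it adds nothing to them. By their signals the 2 sets do not give HLA-F 1 direction, and both may also read other HLA transcripts. The remaining set, 221978_at, was below the filter, with signals of 32.1, 32.7 and 26.9 in depleted and 48.7, 29.9 and 75.5 in control arrays.

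HLA-E, the ligand of NKG2 receptors, also differed between its probe sets. The set 200904_at, the only one of its 3 without a suffix for shared probes, had signals of 876, 1005 and 959.9 in depleted and 1147, 1039.9 and 1113 in control arrays. The groups did not overlap, though depleted replicate 2 and control replicate 2 were close. Depleted minus control came to -0.22 on the log2 scale (SE 0.09, 95% interval -0.42 to -0.01, limma adjusted p = 0.365), and it was -0.19 without control replicate 1. The brightest set, 200905_x_at, had signals of 2613, 2673.5 and 2961 in depleted and 2833, 2480.3 and 2629.5 in control arrays. Its highest value was in depleted replicate 3 and its lowest in control replicate 2, with a log2 difference of 0.05 (95% interval -0.13 to 0.23, adjusted p = 0.829). The remaining set, 217456_x_at, gave -0.03 (adjusted p = 0.949).

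B2M, the light chain that all class I molecules share, was at nearly the same signal on all arrays. The set 216231_s_at had signals of 15879.5, 17759 and 18714.5 in depleted and 19058, 17429 and 18124 in control arrays. The lowest array was depleted replicate 1 and the highest control replicate 1, with the other 4 between them in mixed order. On the log2 scale the difference was -0.06 (95% interval -0.23 to 0.10, limma adjusted p = 0.777). The set 201891_s_at gave -0.05 (95% interval -0.21 to 0.11, adjusted p = 0.817). These intervals leave room for a decrease of up to 0.23 on the log2 scale. The remaining set, 232311_at, was below the filter.

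**Figure D3:**
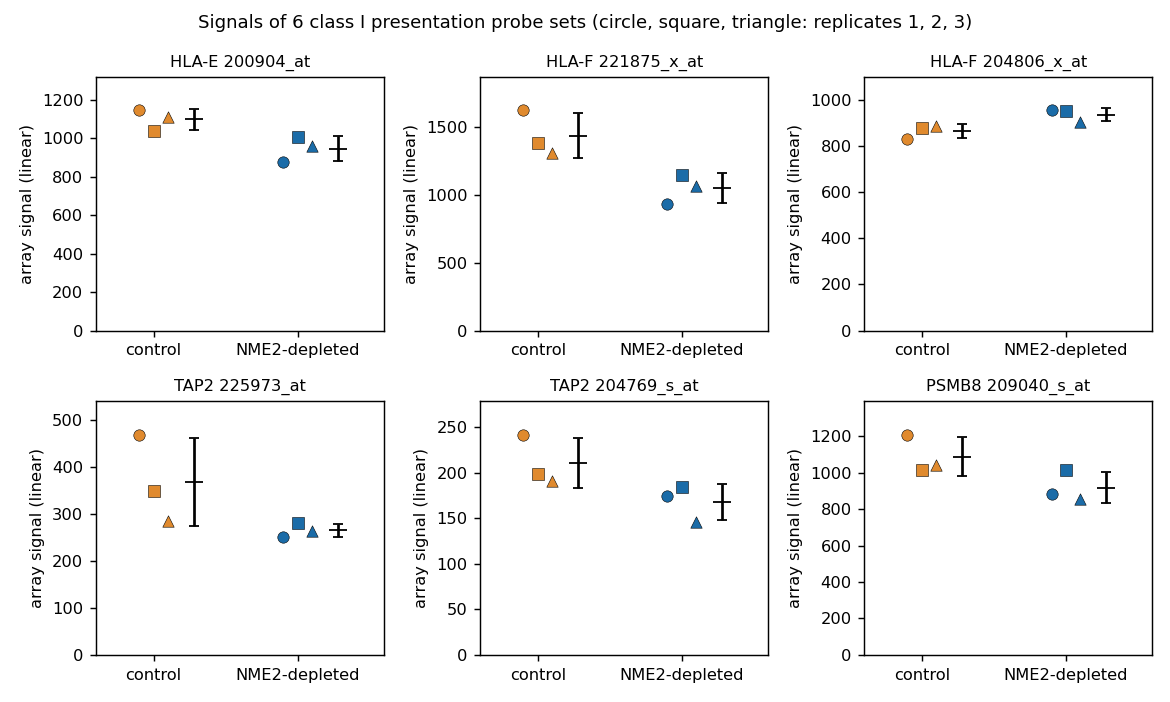
Linear array signals (y axis, from 0) of 6 probe sets in control and NME2-depleted arrays, with circle, square and triangle for replicates 1, 2 and 3 and bars for the mean and SD of 3 arrays. The groups do not overlap for the sets of HLA-F, TAP2 and HLA-E shown, with depleted higher in HLA-F 204806_x_at, and overlap for PSMB8, where depleted replicate 2 (1018) is above control replicate 2 (1014).

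Of the peptide transporter, TAP2 had the larger differences. The set 225973_at had signals of 251, 279.7 and 263.5 in depleted and 468, 348 and 285 in control arrays. All depleted arrays lay below all controls, but the controls ranged widely, and control replicate 3 was near the highest depleted array. The difference was 1.36-fold lower (log2 -0.44, SE 0.19, 95% interval -0.85 to -0.03, limma adjusted p = 0.35) and -0.25 on the log2 scale without control replicate 1. The set 204769_s_at had signals of 174, 185 and 146 in depleted and 242, 199 and 191 in control arrays. It also separated the groups, with control replicate 3 just above depleted replicate 2, and gave -0.32 (95% interval -0.74 to 0.10, adjusted p = 0.523; -0.22 without control replicate 1). Both TAP2 sets thus had the same order of groups in all 6 arrays without passing the test. Sets 204770_at and 208428_at were below the filter, with signals of 1.6 to 86.4 and no common order of the groups.

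TAP1, the partner chain of the transporter, was read by 1 set, 202307_s_at, with signals of 988.5, 957 and 868 in depleted and 1254, 873 and 982 in control arrays. Control replicate 1 was the highest, and control replicate 2 was below 2 of the depleted arrays. The log2 difference was -0.13 (95% interval -0.42 to 0.16, limma adjusted p = 0.73), and 0.02 without control replicate 1. Tapasin, TAPBP, had signals of 2403, 2579 and 2363 in depleted and 2438, 2443 and 2821 in control arrays in its brightest set, 208829_at. The highest array was control replicate 3, and control replicates 1 and 2 lay among the depleted arrays. On the log2 scale the difference was -0.07 (adjusted p = 0.79), and the set 1555565_s_at gave 0.03 (adjusted p = 0.957). The remaining TAPBP set, 210294_at, was below the filter and not tested. Its signals were 38.2, 40.6 and 62.9 in depleted and 79.5, 74.8 and 93.3 in control arrays, lower in every depleted array, with means of 47.2 and 82.5.

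The immunoproteasome subunits PSMB8 and PSMB9 showed 2 patterns. PSMB8 (209040_s_at) had signals of 883, 1018 and 856 in depleted and 1210, 1014 and 1043 in control arrays. Depleted replicates 1 and 3 were below all controls, and depleted replicate 2 was level with control replicate 2. The difference was 1.19-fold lower (log2 -0.25, SE 0.11, 95% interval -0.48 to -0.0095, limma adjusted p = 0.368), and -0.17 on the log2 scale without control replicate 1. PSMB9 (204279_at) had signals of 565, 594 and 545 in depleted and 965, 587 and 582 in control arrays. Here control replicate 1 alone stood apart, and the other 5 arrays lay within a narrow band. The log2 difference was -0.28 (95% interval -0.67 to 0.11, adjusted p = 0.545), and -0.04 without control replicate 1.

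The constitutive subunits that these replace were at log2 differences of -0.03 (PSMB5, adjusted p = 0.87) and 0.03 (PSMB6, adjusted p = 0.911). The change of PSMB8 minus that of PSMB5 was -0.21 (exact two-sided permutation p = 0.3), and -0.11 without control replicate 1. The change of PSMB9 minus that of PSMB6 was -0.31 (exact permutation p = 0.4), and -0.03 without control replicate 1. Over these 2 comparisons both Benjamini-Hochberg values were 0.4, and 3 against 3 arrays cannot give a p below 0.1. PSMB10, a further inducible subunit, gave 0.05 (limma adjusted p = 0.865), and PSMB7, which it replaces, gave -0.13 (adjusted p = 0.585). Of 8 measured genes in the list of these subunits with proteasome activators and the assembly factor POMP, 0 were called and the median log2 difference was -0.05.

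Other genes of peptide loading and trimming, in the endoplasmic reticulum and the cytosol, had no such tilt. Of 13 measured loading and trimming genes 0 were called, 4 had a lower mean, and the median log2 difference was 0.03 (0.04 without control replicate 1). Only 1 of the 13 was highest in control replicate 1. The chaperone CALR gave 0.34 (limma adjusted p = 0.264), the aminopeptidase ERAP1, which trims peptides to length, gave 0.28 (adjusted p = 0.391), the disulfide isomerase PDIA3 gave 0.15 (adjusted p = 0.49), and the cytosolic peptidase NPEPPS gave -0.12 (adjusted p = 0.547). Of 8 tested class I and class I-like genes outside the 10, 0 were called and the median was 0.09. MR1, which presents vitamin metabolites to MAIT cells, gave -0.33 (adjusted p = 0.25), and FCGRT, the neonatal Fc receptor chain, gave 0.24 (adjusted p = 0.401). ULBP1, an NKG2D ligand, gave 0.50 (adjusted p = 0.551) at dim mean signals of 101 in depleted and 70.4 in control arrays. The iron regulator HFE gave 0.14 (adjusted p = 0.658). Of 11 class II presentation genes 5 were tested and 0 called, with a median of -0.11. The lowest among them was HLA-DQB1 at -0.85 (adjusted p = 0.257).

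Among 13 measured transcriptional regulators of class I genes, 1 was called. IRF9, a subunit of the factor that binds the interferon element, had signals of 1010.2, 1180.4 and 943 in depleted and 2951, 1554 and 2443 in control arrays. All depleted arrays lay below all controls, and control replicate 2 was the lowest control. IRF9 fell 2.15-fold (log2 -1.11, SE 0.19, limma adjusted p = 0.0386). That call held in 1 of the 6 fits that left out an array, without control replicate 2 (adjusted p = 0.00548), and was lost in the other 5, with adjusted p-values of up to 0.142, and without the filter on dim probe sets (0.0886). NLRC5, a co-activator of class I genes, had signals of 137, 179 and 177 in depleted and 317, 149 and 142 in control arrays. Control replicate 1 was far above every other array, and the log2 difference was -0.21 (adjusted p = 0.814), or 0.16 without that array. IRF1, an interferon-induced activator of the class I promoters, had signals of 383, 398.5 and 344 in depleted and 586, 399.8 and 349 in control arrays. It showed the same single high control, with a log2 difference of -0.21 (adjusted p = 0.68), or 0.0043 without it. CREB1 gave 0.20 (adjusted p = 0.446) and NFYC, a subunit of the factor that binds CCAAT, gave -0.17 (adjusted p = 0.479). The median of the 13 was -0.14, and -0.02 without control replicate 1.

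Genes of the type I interferon response were, like most members, highest in control replicate 1, and their differences were larger. All 31 tested genes of that list of 38 had a lower mean in depleted arrays and were highest in control replicate 1, with a median log2 difference of -0.98 (-0.63 without control replicate 1). Of the 31, 25 were lower at a limma unadjusted p under 0.05, against 7.75% of 12406 genes. The list was chosen with earlier results of these data known. At the adjusted level 2 were called, both lower, against 0.540% of genes in either direction. MX1, an antiviral GTPase, gave -3.01 (SE 0.51, limma adjusted p = 0.0379). IFITM2, a membrane protein that blocks virus entry, gave -0.62 (SE 0.10, adjusted p = 0.0307). The MX1 call held without control replicate 1 (adjusted p = 0.00522) or control replicate 2 (0.0362) and was lost in the other 4 fits without 1 array (up to 0.139), and the IFITM2 call held without control replicate 1 (0.042) and was lost in the other 5 (up to 0.124). Both were also lost without the filter on dim probe sets (adjusted p = 0.0879 for MX1 and 0.0663 for IFITM2). Of 10 genes of the interferon gamma response 5 were tested and 0 called, with a median of -0.38 (-0.19 without control replicate 1).

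Set against the mean of the depleted arrays on the log2 scale, the median of the 10 member genes was -0.05, 0.07 and -0.02 on the depleted arrays, in order of replicate number, and 0.38, 0.03 and 0.08 on the controls. For the type I interferon genes the same medians were -0.13, 0.12 and 0.0057 in depleted arrays and 1.86, 0.54 and 0.67 in controls. Probe set by probe set, 18, 13 and 16 of the 21 member sets were above the depleted mean on control replicates 1, 2 and 3, and 31, 31 and 29 of the 31 interferon genes were, with SAMD9 and TRIM22 below it on control replicate 3. The member medians hide exceptions: HLA-F 221875_x_at stood 0.64, 0.40 and 0.33 above the depleted mean on the 3 controls, TAP2 225973_at 0.82, 0.40 and 0.11, and TAPBP 208829_at was not raised on control replicate 1 (-0.0049). The loading and trimming genes had -0.10, -0.02 and -0.02 in the controls.

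**Figure D4:**
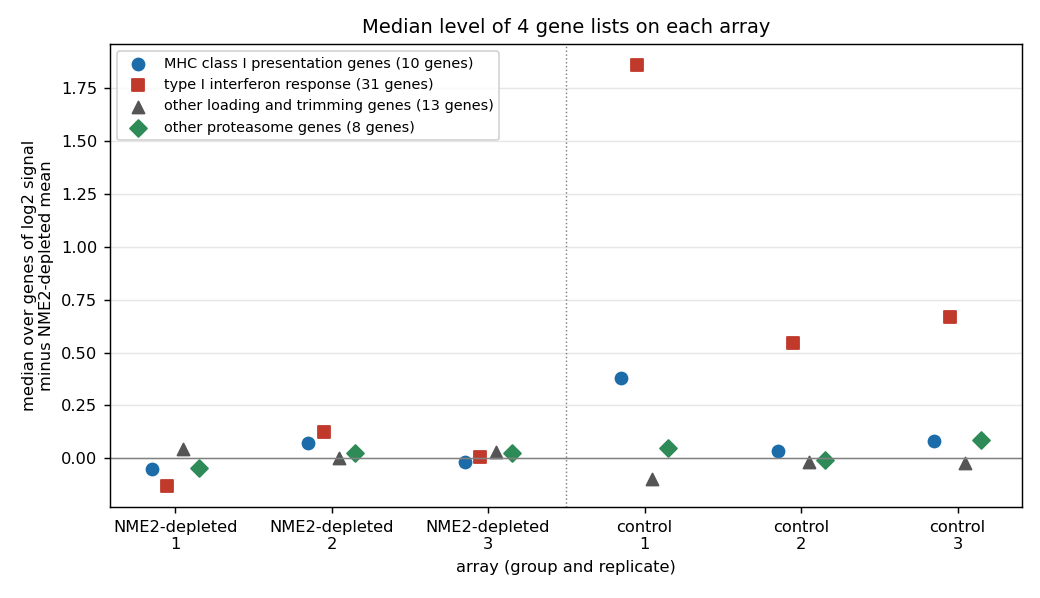
Median over genes of the log2 signal minus the mean of the 3 NME2-depleted arrays (y axis), for 4 gene lists on each of the 6 arrays (x axis). Control replicate 1 stands at 1.86 for the type I interferon genes and 0.38 for the class I presentation genes, and the other loading and proteasome genes stay between -0.10 and 0.08 on all arrays.

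Array quality and traces of other cell types were set beside this pattern. The ratio of 3′ to 5′ ACTB signal, a sign of RNA length, was 1.33, 1.34 and 1.40 in depleted and 1.20, 1.30 and 1.23 in control arrays, lowest in control replicate 1. Every depleted array lay above every control array in this ratio, so it runs with the groups and cannot be told apart from silencing. For GAPDH the ratio was 1.01, 0.985 and 1.06 in depleted and 0.993, 0.970 and 1.02 in control arrays, and the groups overlapped. Leukocyte markers summed to signals of 378 to 510 in depleted and 425 to 538 in control arrays, with control replicate 1 the lowest control, and the pan-leukocyte gene PTPRC had group means of 14.6 and 16.2. Fibroblast markers summed to 786.5 to 965 and 602.5 to 799, and endothelial markers to 286 to 395 and 212 to 314. The part of RNA quality or of other cells in the member values was not tested.

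The genes outside the 10 whose signals were most like the mean profile of the members over the 6 arrays were, by Pearson r among 12396 genes compared, LRIG3 (0.998), EIF2AK2 (0.992), SAMD9L (0.992), IFI16 (0.991), MCM7 (0.989) and FBXO32 (0.985). The mean profile of the members was itself highest on control replicate 1, so genes chosen by likeness to it tend to be highest there too. All 6 were, and none of them passed the test, with adjusted p-values of 0.261 to 0.727. EIF2AK2, a kinase activated by double-stranded RNA, SAMD9L and IFI16, a DNA sensor, are interferon-induced genes, and MCM7 is a subunit of the replicative helicase. MX1 ranked 74 (r = 0.925), IRF1 134 (0.886), NLRC5 176 (0.869) and IRF9 203 (0.859). These r values rest on 6 arrays with 1 far from the rest and are given as a description.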

How the data were processed

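Total RNA of 6 A549 samples was measured on Affymetrix HG-U133 Plus 2.0 arrays, with groups and replicate numbers from the sample titles. Each deposited value is a linear intensity signal of 1 probe set, which the authors made with GCOS 1.1.1 per the submitters' processing notes and scaled to a common mean on each array. Such scaling hides a shift shared by all transcripts. No siRNA or hairpin sequence was used here. Detection calls were not used here, so no dim probe set can be called absent. Arrays have no read depth, and their number, 3 per group, limits the precision.

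Of 54675 rows 62 control probe sets were left out. Signals under 1 (0.327% of values) were set to 1, log2 was taken without further normalization, and the 27307 probe sets whose mean reached the median of all were fitted in limma 3.58.1 (R 4.3.3, lmFit and eBayes with an intensity trend), Benjamini-Hochberg over all of them, two-sided. Names came from a 2016 platform annotation, with 1 symbol for 41091 probe sets, several for 1801 and none for 11721. A gene on a list was read from its brightest tested probe set. Every probe set of the 10 genes was described, and from each list the called genes and up to 4 of lowest p were eligible to be named, with NLRC5, IRF1 and IRF9 and the 6 genes most like the members. The genes and lists were chosen with earlier results of these data known. The scripts were tested on simulated data with 200 changed probe sets. They recovered 21.5% of 1.5-fold, 56.5% of 2-fold and 88% of 4-fold changes. The largest difference among the tested member sets was 1.37-fold, so the lack of member calls does not show that none changed. Normalization, floor, filter, variance model, array weights, the methods' t-test, a replicate block and leaving out each array were the alternatives.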

Additional observations from a re-analysis of the deposited data

How the results depend on the processing

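Of the 10 genes' probe sets, 0 were called at each alternative's own threshold. The lowest adjusted p was 0.0817 (filter at the 75th percentile, 18 tested) and 0.0852 (replicate block). At an unadjusted p under 0.05, 1 to 4 of 21 passed under the alternatives that kept the filter, against 2813 to 4564 of all 27307. The replicate block passed 4 of 21 against 4564. With other filters it was 4 of 26 against 4982 of 54613 (none) and 2 of 18 against 2342 of 13654 (75th percentile). Without shared probe sets it was 2 of 4 against 2098 of 16186. The calls over the whole array moved more: 108 became 30 without a filter, 192 with the filter at the 75th percentile, 62 without shared probe sets, 0 in limma without the intensity trend (3130 at an unadjusted p under 0.05) and 8 to 63 when 1 array was left out. The methods' t-test called 504 at an unadjusted p under 0.005, a threshold the series text gives for its own change test, and 0 after Benjamini-Hochberg adjustment. At an unadjusted p under 0.05, which the study also used with this test, it passed 3065 and 3 of the 21 member sets, HLA-E 200904_at, HLA-F 221875_x_at and HLA-F 204806_x_at. Centring arrays on the median turned 76 lower and 32 higher calls into 107 and 20. The replicate block gave 464 calls. Same-numbered arrays deviated together with correlations of 0.114, 0.0805 and 0.0702, not all over 0.1, so numbers were not taken to pair them, although each array correlated best with its own number, a hint from the data and not the design.

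The median log2 difference of the members was -0.25 without shared probe sets, which left 4, and -0.17 to -0.03 when 1 array was left out, the last without control replicate 1. The immunoproteasome comparisons ranged from -0.29 to -0.11 (PSMB8 and PSMB5) and from -0.51 to -0.03 (PSMB9 and PSMB6) when 1 array was left out. Single probe sets near 0 changed sign in 15 of 379 alternative values, none of them called. TAPBP 1555565_s_at was -0.013 under median centring, and HLA-E 217456_x_at was 0.016 with array weights. The others came from leaving out 1 array, with ranges of -0.16 to 0.047 for HLA-E 217456_x_at, -0.00034 to 0.10 for HLA-E 200905_x_at, -0.14 to 0.10 for HLA-B 208729_x_at, -0.26 to 0.059 for HLA-C 211799_x_at, -0.12 to 0.0031 for B2M 216231_s_at, -0.089 to 0.0091 for B2M 201891_s_at, -0.25 to 0.016 for TAP1 202307_s_at, -0.10 to 0.0035 for TAPBP 208829_at and -0.088 to 0.20 for TAPBP 1555565_s_at. The cause of these changes was not tested.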
